A study of Mus musculus with 2 samples.

Results

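The junctions described here are gaps in spliced reads that stretch over 100000 bases or more of the mouse genome. They come from 1 deposited list of splice junctions on the mm9 assembly that pools both libraries of the study. A row was taken where its ends lay 100000 or more bases apart and where 10 or more reads crossed it. Rows that touched chromosome 12 between 114400000 and 117300000 or chromosome 6 between 67500000 and 70750000, which hold antigen receptor genes, were left out. The rule found 1312 of the 428708 rows. The members were thus chosen by their span and their pooled reads, and both are given as description only. The RNA was poly(A) RNA longer than 200 nucleotides from the spleen of 8-week-old C57BL/6J mice, sequenced as 76-nucleotide paired reads in 2 biological replicates. These form a single group of untreated wild-type tissue, called library 1 and library 2. The labels name mixed-sex littermates and do not tell which animals went into which library, so the spread between the libraries may be technical.

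Most mouse introns are short, and introns as long as these occur mainly in large genes for signalling, adhesion and transcription. A very long intron is often the first of its gene, between an upstream promoter's exon and the remaining exons. A read that crosses a junction is split by the aligner, and where near-identical gene copies lie side by side on a chromosome, the parts of a read can match more than 1 copy.

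A working name for these rows is junctions of very long introns, and that name held for a minority of them. A row was matched to an annotated intron where chromosome, strand and span in bases were the same as in GENCODE version M21 of GRCm38. No position was carried from one assembly to the other. By this match 244 of the 1312 junctions (18.6%, Wilson 95% interval 16.6 to 20.8%) were annotated introns, and 0 matched on the opposite strand. The 244 held 5.45% of the 345783 reads. A further 114 junctions (8.69%) joined splice sites of 2 different genes and held 56.9% of the reads, most of them in 1 group of trypsinogen genes (187304 reads). Another 27 joined copies whose exon structure is the same, 7 lay within 1 gene without being annotated, 185 had 1 end at a named splice site and 735 had none. These last 735 held 31.9% of the reads. Below, the first are called annotated long introns, and the rest are called by what they join.

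To show what the annotated class looks like in RNA, the sequence at the exon join is given for introns with the most reads and for regulators of blood cells. Each run has the last 15 bases of the upstream exon in lower case and the first 15 of the downstream exon in capitals, 5′ to 3′, all within coding sequence of GENCODE M21.
Ptprj, exons 1 and 2: ctacgccagggccagGTCCTGTGCGCAGGT
Prkcb, exons 2 and 3: gattccagtgtcaagTCTGCTGCTTTGTTG
Dock2, exons 27 and 28: gatcacgctttgattAGTCACTTTGTGGCG
Lhfp, exons 2 and 3: tccagttcctgggggGCTTGCTGATTGGTG
Runx1, exons 2 and 3: agtgcttcatgagagATGCCAGCACGAGCC
Ebf1, exons 6 and 7: agtgataattgacagGTTCTTCCTGAAGTT
Bcl2, exons 1 and 2: gataacggaggctggGATGCCTTTGTGGAA
Bank1, exons 7 and 8: tttgaagactttctcAGCCAAAACACTGGC
Exon numbers are those of 1 transcript of each gene. The sequence at the middle of each run was brought together over the distance given with the gene below.

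For the junctions between related genes, the first 30 bases of the exon that follows the shared upstream exon show how alike the joined copies are. Capitals mark bases that differ from the upstream gene's own next exon. For Try4, which encodes a trypsinogen, exon 4 and the exons joined to its exon 3 were:
Try4 own exon 4: tgaacaacccagacctgctccagtgcctgg
Prss2 exon 4: tgaacaacccagacctgctccagtgTGtTg
Gm5409 exon 3: tgaacaacccagacctgctccaAtgcctgg
For H2-D1, a classical MHC class I heavy chain that presents peptides to T cells, exon 3 and the exons joined to its exon 2 were:
H2-D1 own exon 3: gctctcacacactccagcagatgtctggct
H2-Q5, H2-Q6 and H2-Q7 exon 3: gctctcacacactccagTGgatgtAtggct
H2-Q4 exon 3: gctctcacacTAtTcagGTgatCtctggct
The Prss2 exon differed from that of Try4 at 3 of 30 bases and the Gm5409 exon at 1. The exons of H2-Q5, H2-Q6 and H2-Q7 were alike over these bases and differed from that of H2-D1 at 3, and that of H2-Q4 differed at 6.

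Each row carries an A flag and a C flag of 0 or 1, whose meaning the sources used here do not give. Among long junctions the A flag went with the annotation: 236 of the 237 rows with an A flag of 1 had the span of an annotated intron, and only 8 rows with an A flag of 0 did. Of the 608 rows with a C flag of 0, 0 did. An A flag of 1 stood in 88.7% of junctions under 1 kb, 91.7% from 1 to 10 kb, 78.1% from 10 to 50 kb, 55.7% from 50 to 100 kb and 18.1% at 100 kb or more. A C flag of 1 fell less steeply, from 96.1% under 1 kb to 88.2% at 50 to 100 kb and 53.7% at 100 kb or more. The shares are over junctions with 10 or more reads outside the same loci, 117724 of them under 100 kb.

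**Figure D1:**
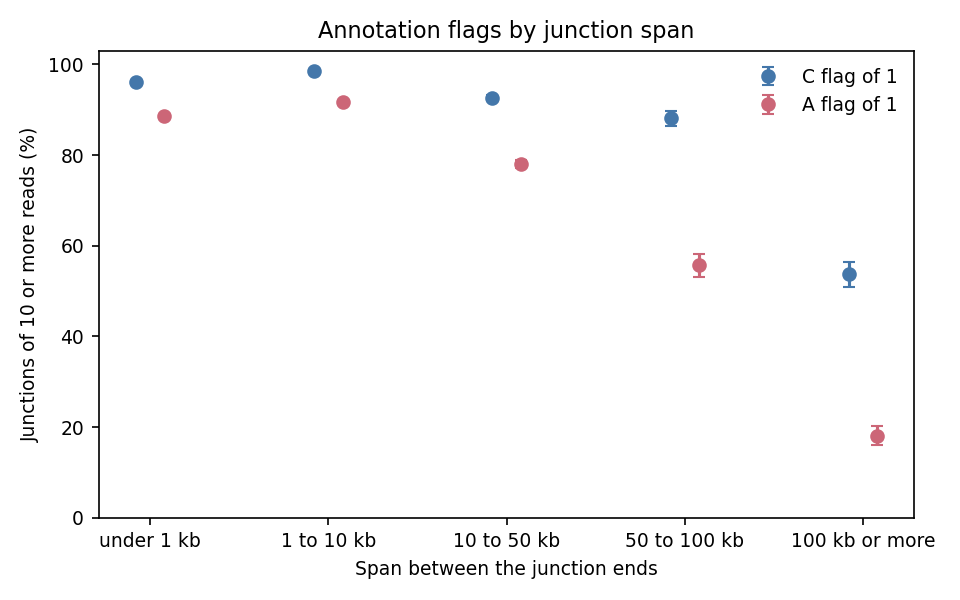
Share of junctions with 10 or more reads (vertical axis, percent) that carry an A flag of 1 or a C flag of 1, by span between the junction ends (horizontal axis), with Wilson 95% intervals. The A flag falls from 91.7% at 1 to 10 kb to 18.1% at 100 kb or more.

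The classes overlapped in reads. Annotated long introns had a median of 31 reads, junctions between 2 genes 40 and junctions with neither end named 19. Reads came from 1 library alone in 53 of the 1312 rows (4.04%), against 0.641% under 1 kb and 3.38% from 50 to 100 kb, where the Wilson 95% intervals (3.10 to 5.25% and 2.57 to 4.45%) overlap. Of the 53, 46 had neither end named. A contig, which is a stretch of continuous coverage in the deposited list for both libraries, lay within 10 bases of both ends on the same strand for 242 of 244 annotated long introns (99.2%). The same held for 455 of the 608 rows with a C flag of 0 (74.8%) and for 2 of the 27 joins between copies of 1 structure (7.41%). An edge of a contig lay within 10 bases of both ends in 16.5% of all long junctions and in 10.6% to 16.0% of the shorter span classes. At the lower edge of the rule, 102 junctions had exactly 10 reads and 119 of 100 kb or more had exactly 9. Just inside the span limit lay an intron of Bach2 with 100130 bases, an unnamed junction with 100177 and an intron of Babam2 with 100196, and just outside lay junctions of 99490, 99423 and 99381 bases.

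**Figure D2:**
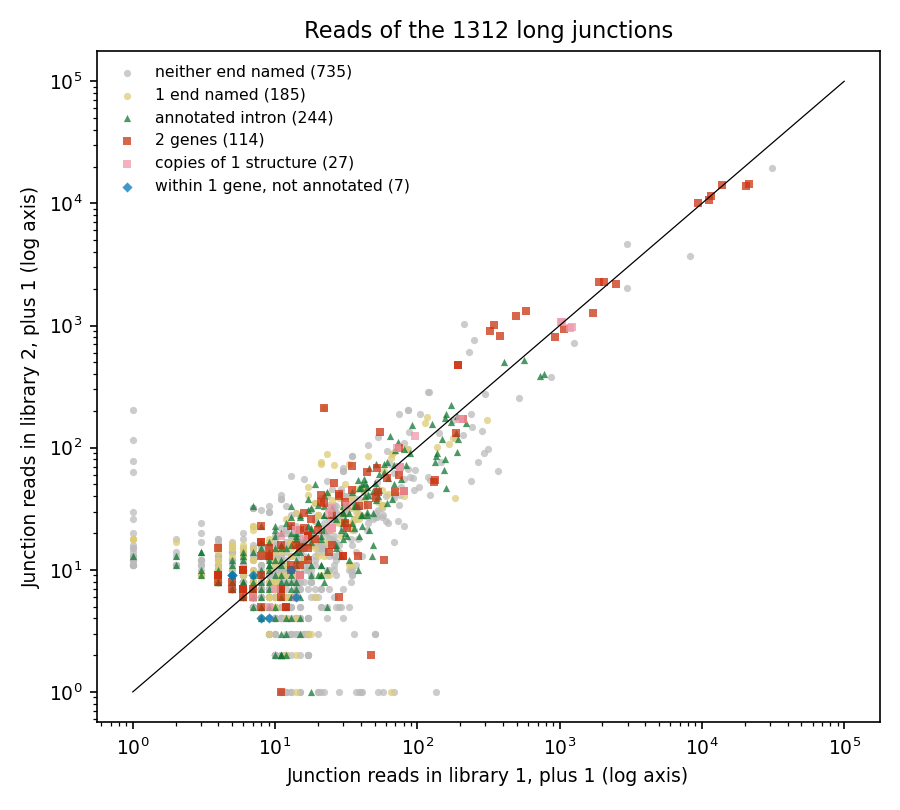
Reads of each long junction in library 1 (horizontal) and library 2 (vertical), plus 1, on log axes. Points are junctions, colours and shapes are the classes with their numbers, and the line marks equal reads. Some of the 114 junctions between 2 genes and a few with neither end named reach the highest reads. Joins between copies of 1 structure reach 2201 reads in all, and the annotated long introns lie at 1174 or below.

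The 244 annotated long introns belonged to 222 gene labels, 242 of them to protein-coding genes. Of these introns 145 (59.4%) were the first intron of at least 1 annotated transcript, and 12 were intron 10 or later in every transcript. Spans reached 200 kb or more in 23. The upstream splice site was nearly always used for this join: the intron took 90% or more of the reads at its donor in 198 of 244, with a median of 99.5%. Junctions between 2 genes took a median of 25%, and the median over all 1312 was 96.9%.

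The 4 introns with the most reads lay in Ptprj, Prkcb, Dock2 and Lhfp. Intron 1 of Ptprj, a receptor tyrosine phosphatase, spanned 105166 bases (mm9, chr2:90315147-90420312, minus strand) and had 772 reads in library 1 and 402 in library 2. An intron of 134414 bases in Prkcb, the protein kinase C that acts downstream of the B cell receptor, had 730 and 382 reads (chr7:129434059-129568472, plus strand). Both had more reads in library 1. Intron 27 of Dock2, a Rac activator needed for lymphocyte migration, spanned 125717 bases and had 562 and 523 reads (chr11:34212558-34338274, minus strand). Intron 2 of Lhfp, a gene for a tetraspan membrane protein, spanned 188038 bases and had 408 and 506 reads (chr3:52847614-53035651, plus strand). In these 4 the intron took 97.7% (Wilson 95% interval 96.7 to 98.4%), 98.8% (97.9 to 99.3%), 98.9% (98.1 to 99.4%) and 99.0% (98.2 to 99.5%) of the reads at its donor. These intervals hold the counting error alone, because no molecular identifiers mark which reads are copies of 1 molecule.

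**Figure D3:**
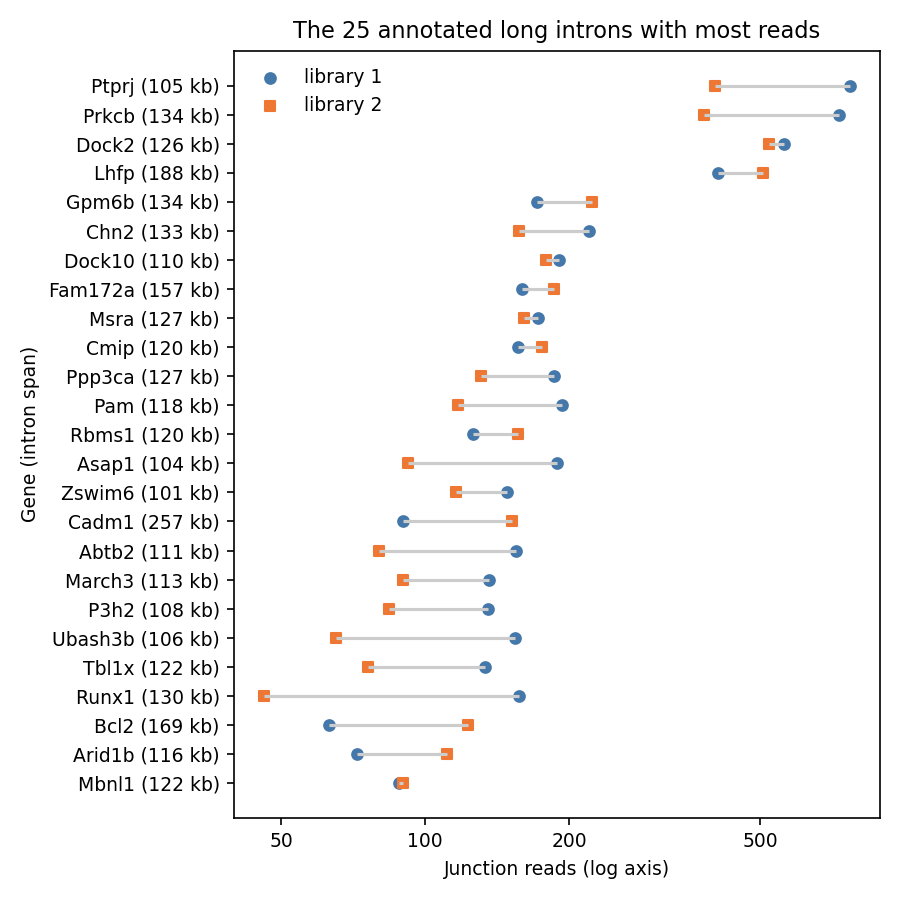
Junction reads (log axis) of the 25 annotated long introns with the most reads in library 1 (circles) and library 2 (squares), with the gene and the intron's span on the vertical axis. Ptprj, Prkcb, Dock2 and Lhfp stand above the rest, and Runx1 shows the widest gap, with 157 and 46 reads.

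Regulators of B cells made up 1 of the gene lists used to describe the introns. Of its 20 genes 8 have an annotated intron of 100 kb or more, and 6 had one among the members: Ebf1, Bach2, Foxp1, Aff3, Prkcb and Bank1. Ebf1, the transcription factor that specifies the B lineage, was joined over 225622 bases between exons 6 and 7 by 39 and 46 reads in libraries 1 and 2. Bach2, a repressor that restrains plasma cell formation, was joined over 100130 bases by 57 and 73 reads. Bank1, a scaffold of B cell receptor signalling, had 60 and 75 reads over 109901 bases. The reads of these 3 introns were close in both libraries. Aff3, a nuclear factor of lymphoid cells, had 12 and 26 reads over 128362 bases, and the intron of 126777 bases that Foxp1 shares with the annotated gene Gm20696 had 16 and 18. Bcl2, the apoptosis inhibitor, stood on no list and had 63 and 123 reads over 168906 bases.

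Of the 19 genes listed as T cell and NK cell regulators, 7 have such an intron in the annotation and 5 had one here. Skap1, an adaptor of T cell receptor signalling, had a pair of introns that start at the same donor: 161122 bases with 17 and 20 reads, and 136447 bases with 10 and 14. They took 52.1% and 33.8% of the reads at that donor. Tox, a nuclear regulator of T cell development, had 13 and 15 reads over 147963 bases. Camk4, a calcium-dependent kinase, had 32 and 28 over 138448, and the phosphatase gene Inpp4b had 13 and 17 over 129959. The intron of the kinase gene Fyn, 116694 bases with 8 and 7 reads, took 10.1% of its donor's reads (Wilson 95% interval 6.20 to 16.0%), so most reads there joined another exon.

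Dock10, a guanine nucleotide exchange factor, had 190 and 179 reads over an annotated long intron of 109993 bases, and Elmo1, the partner of Dock proteins, had 29 and 23 over 114817. Fmnl2, a formin that builds actin filaments, had 31 and 33 reads over 156543 bases. The GTPase-activating proteins Arhgap15 and Arhgap26 had 5 and 7 reads over 173244 bases and 14 and 2 over 104000. Of 18 haematopoietic and myeloid transcription factors, 11 have such an intron and Runx1, Mitf, Nfia and Zbtb20 had one here. Runx1, a master regulator of blood stem cells, was joined over 129851 bases by 157 and 46 reads. This is its first intron in at least 1 transcript, and it reaches from the distal promoter's exons. The introns of Mitf (12 and 7 reads), Nfia (8 and 16) and Zbtb20 (11 and 14) were covered thinly.

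Of 27 stromal, vascular and adhesion genes, 20 have an annotated intron of 100 kb or more and 7 had one among the members: Ldb2, Magi1, Lpp, Ptprm, Ptprg, Cdh13 and Fbxl7. Fbxl7, an F-box protein gene, had a pair of neighbouring introns, 236460 bases with 19 and 33 reads and 105410 bases with 10 and 19. Ptprg, a receptor phosphatase, likewise had 166782 bases with 15 and 17 reads and 231496 bases with 10 and 6. In Cdh13, an adhesion gene with a mean level of 0.485 TPM, 2 and 8 reads crossed an intron of 103491 bases. The introns of Lpp had 24 and 27 reads, of Ldb2 11 and 7 and 10 and 8, of Ptprm 8 and 13 and of Magi1 2 and 9. Of 36 long genes that most tissues express, 24 have such an intron and 13 had one here, among them Ptprj, Macrod1 (53 and 60 reads over 119372 bases), Foxn3 (42 and 39 over 113361) and the oxidative demethylase gene Fto (34 and 23 over 143385). Rbms3 had a pair of introns with 21 and 40 and 10 and 15 reads. Exoc4, Wwox, Cdk14, Pard3, Msi2 and Atxn1 also had introns here, with 6 and 5, 12 and 8, 17 and 8, 5 and 5, and 16 and 22 reads for the first 5.

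The longest annotated intron was intron 1 of Kcnq5, a potassium channel gene, with 367566 bases and 6 reads in each library. Smyd3, a lysine methyltransferase gene, followed with 310880 bases and 36 and 32 reads, and Hdac9, a histone deacetylase gene, with 299291 bases and 31 and 18. Hs6st2, a heparan sulphate sulphotransferase gene, had 79 and 97 reads over 289528 bases. Plcl1 had 10 and 2 reads over 289114 bases, Cmss1 20 and 10 over 283122, the axon guidance gene Slit3 9 and 11 over 273314, and Slc25a21 11 and 23 over 268559. Cadm1, a cell adhesion molecule, combined a long span of 257465 bases with 90 and 152 reads. Immp2l, a mitochondrial peptidase gene, had 4 and 7 reads over 251223 bases. More than 1 annotated long intron was crossed in 21 genes, and Astn2 had the most, with introns of 137502, 117030 and 105645 bases that had 6 and 32, 9 and 18, and 7 and 14 reads.

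Genes with a crossed long intron had a lower median level than all expressed genes. The gene tables give TPM, a level scaled by length and depth, for 219 of the genes. The median over these genes of the mean TPM was 4.08 (4.16 in library 1 and 3.95 in library 2). Of these genes 193 had 1 TPM or more in both libraries, with a median of 4.84. All 12500 genes past the same minimum had a median of 11.1. The lowest mean was 0.110 TPM, in Agbl1, and the highest 157.9 TPM, in Mbnl1. Across the 241 introns with a single gene, junction reads and gene TPM had a Spearman correlation of 0.505, given as description. The genes share libraries and depth, and both measures rise with the number of reads. The 4 leading genes had means of 19.4 ± 0.530 TPM (SD, n = 2) for Ptprj, 51.1 ± 7.32 for Prkcb, 33.2 ± 1.45 for Dock2 and 79.1 ± 0.919 for Lhfp.

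A high gene level and a well-used long intron did not always go together. Mbnl1, a splicing regulator, had 88 and 90 reads over an intron of 122420 bases, which took 18.1% of its donor's reads. Seen from the annotation, which lists 2172 distinct introns of 100 kb or more, 124 belong to genes outside the gene tables, and 0 of these had 10 or more reads. Of the rest the share with 10 or more reads was 1.69% in genes under 1 TPM (22 of 1302). It was 27.0% from 1 to 5 TPM (120 of 445), 31.9% from 5 to 20 TPM (65 of 204) and 38.1% at 20 TPM or more (37 of 97). The last 3 shares have Wilson 95% intervals of 23.1 to 31.3%, 25.9 to 38.5% and 29.1 to 48.1%, which overlap. Some annotated long introns had 0 reads by this match in genes of high level, such as those of 108041 and 113965 bases in Pax5, at a mean of 125.5 TPM. Pax5 is a B cell transcription factor. Here 0 reads means that no junction of the same chromosome, strand and span was listed. An intron whose span differs between the assemblies would be missed, so 0 reads does not show that an intron was unused. The shares above may be too low for the same reason. First introns made up 53.5% of all annotated long introns in genes of 1 to 5 TPM and 60.0% of those with 10 or more reads.

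Reads were compared between the libraries for all junctions. The row names give reads as R1 and R2, which always sum to the total and were read as libraries 1 and 2. Over 9469 genes the R2 to R1 ratio followed the ratio of the gene counts (Spearman 0.623, as description), and of 106 genes over 2-fold apart in gene counts 100 had the same direction in R1 and R2. An exact two-sided binomial test with Benjamini-Hochberg adjustment over 119036 junctions of 10 or more reads, at a threshold of 0.05, called 20.2% of them. The test compares these libraries and holds no estimate of the spread between animals. Of the 244 annotated long introns it called 43 (17.6%), close to that background. Among the 735 junctions with neither end named it called 27.2%, 133 of them toward library 1 and 67 toward library 2. Among the 114 between 2 genes it called 29.8%, 21 toward library 1 and 13 toward library 2.

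The direction of the calls differed with the place of the intron in the gene. Over all 119036 junctions 13858 were called higher in library 1 and 10212 in library 2. Of the 145 long introns that are first in at least 1 transcript, 27 were called higher in library 1 and 6 in library 2, with a median log2 ratio of library 2 to library 1 of -0.205. Of the 99 later introns, 3 and 7 were, with a median of 0.128. The split was not limited to the longest introns. Named first introns were called toward library 1 in 17.7% under 1 kb, 15.7% from 1 to 10 kb, 21.6% from 10 to 50 kb, 21.5% from 50 to 100 kb and 18.5% at 100 kb or more, so the share of the long ones was near that of shorter ones. In the same order, named later introns were called toward library 1 in 12.54%, 8.279%, 8.205%, 5.333% and 4.255%. Named first introns had medians of -0.046 under 1 kb, -0.044 from 1 to 10 kb, -0.196 from 10 to 50 kb, -0.246 from 50 to 100 kb and -0.230 at 100 kb or more, where 119 were tested. Later introns had -0.000, 0.060, 0.062, -0.043 and 0.165. The gap was thus wider from 10 kb on than below. The difference between first and later introns was not itself tested. Scaling by total junction reads in place of TMM moved the median of all junctions from 0.000 to -0.159, and the calls among annotated long introns to 6 higher in library 2 and 42 in library 1. Relative to all junctions the order remained, with medians of -0.356 for first and -0.000 for later introns.

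**Figure D4:**
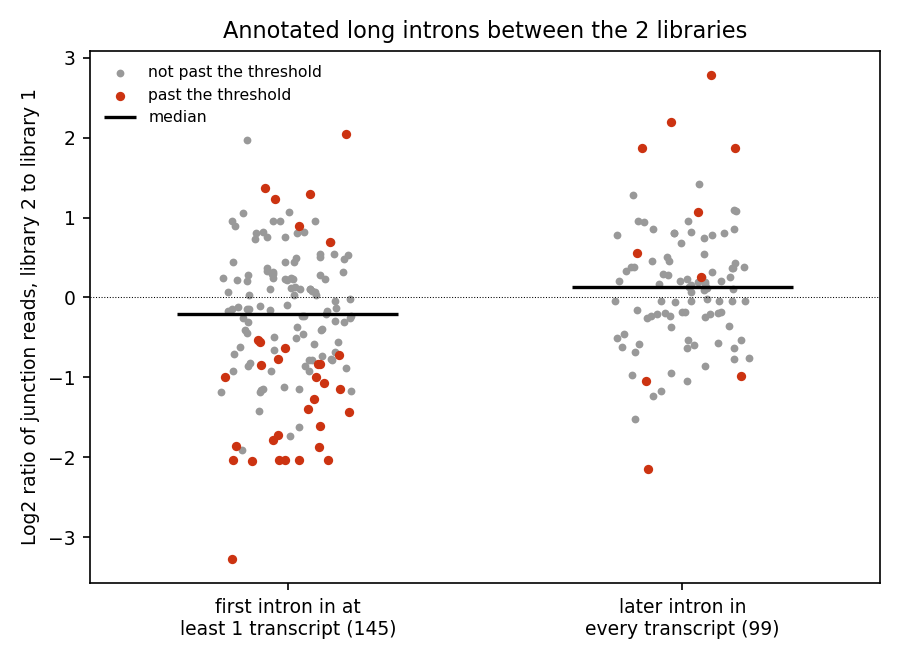
Log2 ratio of junction reads, library 2 to library 1 (vertical axis, TMM-scaled, prior count 2), for annotated long introns that are first in at least 1 transcript and for those later in every transcript. Points are introns, red where the exact binomial test passed the threshold, and bars are medians (-0.205 and 0.128). Most red points among first introns lie below 0.

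In some genes the long intron shifted more than the rest of the gene. Ptprj had 772 and 402 reads over its long intron, whereas its other junctions summed to 2829 and 2767 reads and the gene stood at 19.8 and 19.0 TPM. The intron thus fell by 0.91 on the log2 scale against the rest of the gene from library 1 to library 2 (Fisher's exact test, Benjamini-Hochberg adjusted p = 1.56e-19). The deposited share of the transcript with this intron was 99.3% of the gene in library 1 and 73.4% in library 2. Runx1 had 157 and 46 reads over the long intron and 969 and 770 over its other junctions, a fall of 1.43 (Fisher's exact test, adjusted p = 5.41e-08), and the gene itself, at 32.8 and 24.4 TPM, was also called higher in library 1. The share of its transcripts with the intron did not follow, at 11.1% and 11.6%. Ubash3b, a regulator of T cell receptor signalling, had 154 and 65 reads over 105928 bases against 778 and 711 elsewhere in the gene (Fisher's exact test, adjusted p = 1.19e-05), and its transcript share was 41.2% and 41.8%.

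Prkcb moved in the same direction, with 730 and 382 reads against 4371 and 3387 (Fisher's exact test, adjusted p = 1.35e-07). The opposite direction was seen in Aff3, with 12 and 26 reads against 1999 and 1562 (Fisher's exact test, adjusted p = 0.0215), in the chromatin factor gene Arid1b and in Astn2. In all, 30 of the 213 annotated long introns that could be tested changed their share, 9 toward library 2 and 21 toward library 1. Of all 100685 junctions tested in the same way 17.2% did, so the long introns' count is not above the background. Csmd1 had an intron of 196523 bases with 0 reads in library 1 and 12 in library 2. A gene label of the Ugt1a cluster, whose members share their later exons, had introns of 119740 bases with 17 and 0 reads and of 119065 bases with 8 and 10. In that cluster the gene name is uncertain.

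At the level of whole genes the same exact binomial test called 50.7% of 17547 genes, 24.1% higher in library 2 and 26.6% higher in library 1. Of the 219 genes with an annotated long intron it called 117, 49 higher in library 2 and 68 in library 1, a share near the background. Their median log2 ratio was -0.03, beside 0.01 for all genes tested. By TMM-scaled expected counts 2 of them differed by more than 2-fold, Hs3st2, a heparan sulphate sulphotransferase gene, with 427 and 1154 counts, and Thsd7a, with 64 and 138. By TPM, which also depends on the estimated transcript lengths, 12 did, among them Asap1 at 60.4 and 19.8 TPM. Hs3st2 stood at 4.31 and 10.6 TPM and its long intron of 107203 bases had 18 and 49 reads, so both measures were higher in library 2. Of the 20 B cell regulators, with or without a long intron, 12 were called toward library 1 and 5 toward library 2. The T cell and NK cell list had 5 and 4 in the same order. The transcription factors had 7 and 2, stromal genes 7 and 3 and ubiquitous long genes 10 and 12.

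Cell markers describe what the libraries held. All 6 B cell, 5 T cell, 5 red pulp macrophage, 5 erythroid, 4 endothelial, 4 stromal and 5 pancreatic acinar markers were at 1 TPM or more in both libraries, and 1 of 4 neuronal markers was. None of these genes had an annotated long intron among the members. The 5 macrophage markers summed to 311.2 TPM in library 1 and 540.9 in library 2, and the 5 erythroid markers to 194300 and 304500 TPM, and every marker of both lists was called higher in library 2. Of the 6 B cell markers 4 were called higher in library 2 and 2 in library 1, the opposite balance of calls to the B cell regulators. By summed TPM both lists were higher in library 1, with 2285 and 2024 for the markers and 1421 and 1108 for the regulators. Of the 5 T cell markers 4 were called, all higher in library 2. The 4 spleen patterning genes measured summed to 110.2 and 74.5 TPM. The part of cell composition in the ratios above was not tested.

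Joins between related genes held most reads of the long junctions, because 187304 of the 345783 reads lay in the trypsinogen group alone. Together 141 long junctions joined 2 different genes or copies of 1 structure, in 35 groups of linked genes, and 123 had the same intron number at both ends. Whether the linked genes are copies of each other was not checked for every group. Of the 141, 104 had at most 3 mismatches both in the last 30 bases of the upstream exon and in the first 30 of the downstream exon, comparing the joined gene's exon with the other gene's own. The downstream exon start was the same at every base in 82. In 37 of the 141 the long join had more reads than the flagged junction of the same donor within its own gene. Equal reads in both libraries, together with a shared end, were found in 18 of the 85 joins between 2 genes with 20 or more reads and in 9 of the 23 between copies of 1 structure, against 1 of 165 annotated long introns. The same was found in 23 of 108 junctions with 1 end named and in 36 of 348 with neither end named. Equal reads means that another long junction with the same donor or acceptor had the same R1 and the same R2. Whether a read was entered in several rows was not tested. Copies that cannot be told apart by sequence are uncertain by name throughout.

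The trypsinogen genes on chromosome 6, which encode the precursors of the digestive protease trypsin, formed the leading group. Its 20 joins among Try4, Try10, Gm5409, Gm5771, Prss1 and Prss2 lay between 41252324 and 41474871 and summed to 99207 reads in library 1 and 88097 in library 2. The join from Try4 exon 3 to Prss2 exon 4, over 219873 bases, had 21482 and 14483 reads. The same donor joined Gm5409 over 114460 bases with 20529 and 13753 reads and the next exon of Try4 itself with 44645 and 39896. The long joins were thus fewer than the local one but of the same order. The donor of Try4 exon 2 joined Prss2 over 220411 bases with 11512 and 11473 reads and Gm5409 over 114799 with 9428 and 10035. The donor of exon 4 joined Prss2 over 219800 bases with 2472 and 2171 reads and Prss1 over 158511 with 1705 and 1266. All 4 had fewer reads than the local junction of the same donor. From its first exon Try4 joined Prss1 over 158856 bases with 13837 and 14203 reads, at a place where both exon ends had 0 mismatches of 30. Try10 joined Prss2 over 168243 bases with 11290 and 10651 reads, more than the 10346 and 10863 of its own junction only in library 1. A later donor of Try10 joined Prss2 over 167406 bases with 1897 and 2274 reads, beside 99 and 158 of its own. Gm5409 and Gm5771 joined Prss2 with 2043 and 2279 reads over 105696 bases and with 1078 and 937 over 129036. These genes are expressed in the acinar cells of the pancreas, which lies beside the spleen. The 5 acinar markers, of which Prss2 is 1, summed to 74500 TPM in library 1 and 56980 in library 2, although 4 of them were called higher in library 2 and 1 in library 1, with a median log2 ratio of 0.06. Their part in these reads was not tested.

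Chemokine gene copies on chromosome 4 came next. Among Ccl21b and the annotated copies Gm10591, Gm13304 and Gm21541, whose structures cannot be told apart, 4 joins over 245624 to 456933 bases had 2093 to 2201 reads each. The exons on both sides had 0 mismatches, and the joins took about all reads of their donors, with a median of 99.2%. CCL21 attracts T cells and dendritic cells to lymphoid tissue. From Ccl19, another chemokine of the T cell zone, to its copy Gm12407 a join over 1030369 bases had 27 and 5 reads, the longest span with both ends named.

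**Figure D5:**
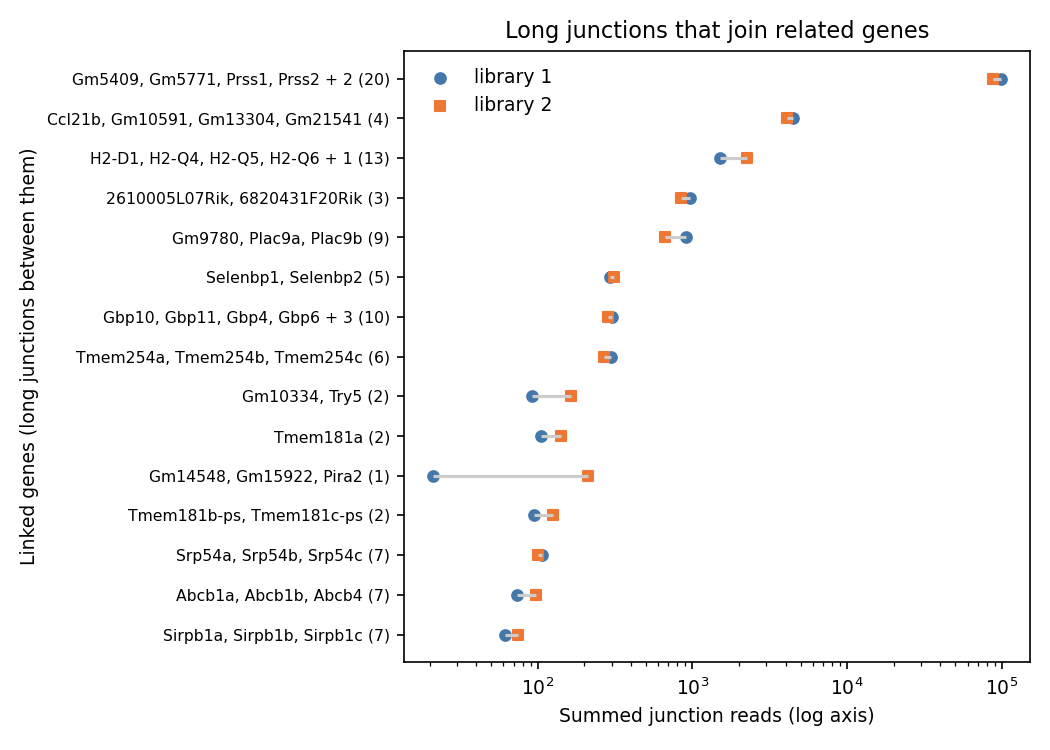
Summed reads (log axis) of the long junctions that link 2 genes or copies of 1 structure, in library 1 (circles) and library 2 (squares), for the 15 groups with the most reads. The number of junctions in each group is in brackets. Sums add every junction of a group, also those with the same reads. The trypsinogen group, with 187304 reads, lies above all others, and the Pira2 group shows the widest gap, with 21 and 210 reads.

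MHC class I genes on chromosome 17 had 13 joins from H2-D1 to the Q region. From H2-D1 exon 2, 378 and 821 reads reached H2-Q5 over 131162 bases, 193 and 471 reached H2-Q6 over 161922 and 191 and 470 reached H2-Q7 over 176260. All 3 were higher in library 2 (exact binomial test, Benjamini-Hochberg adjusted p = 2.12e-32, 1.81e-23 and 6.6e-24). The joins to H2-Q6 and H2-Q7 had nearly the same reads, and their exon starts are alike over the bases shown above. The tests may therefore rest on the same reads, which was not tested. The join within H2-D1 had 4929 and 6190 reads from the same donor, and that to H2-Q4 had 30 and 23. One exon earlier, joins to H2-Q5 (132 and 53 reads) and H2-Q6 (130 and 51) went the other way and were higher in library 1 (exact binomial test, adjusted p = 2.71e-08 and 1.8e-08), as was the join within H2-D1 at that donor, with 7148 and 4258 reads. These 2 long joins too may rest on the same reads. Further on, H2-D1 joined H2-Q4 over 118743 bases with 185 and 130 reads, higher in library 1 (exact binomial test, adjusted p = 0.00588), beside 6649 and 6848 reads of the local join. Long and local joins thus went the same way at the first donor and, for H2-Q5, H2-Q6 and H2-Q7, at the second, but not throughout.

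Other groups held immune genes. The guanylate-binding proteins, interferon-induced GTPases on chromosome 5, had 10 joins with 302 and 284 reads in all, such as Gbp10 to Gbp9 with 51 and 67 reads over 139411 bases. Klrb1c, which encodes the NK cell antigen NK1.1, joined Klrb1a over 168046 bases with 34 and 70 reads beside 39 and 88 in its own junction. Its next exon and that of Klrb1a had 0 mismatches of 30. A join that names Pira2 and its copies Gm14548 and Gm15922, paired immunoglobulin-like receptors of myeloid cells, had 21 reads in library 1 and 210 in library 2 (exact binomial test, adjusted p = 1.04e-36). A long junction of 158488 bases with the same acceptor and only 1 end named had the same 21 and 210 reads. Both rows may therefore rest on the same reads, which was not tested. Mndal to Ifi204, interferon-inducible sensors of DNA, had 46 and 1 reads over 109369 bases, although the local junction of the same donor had 60 and 208. Signal regulatory protein genes joined Sirpb1c to Sirpb1b with 27 and 39 reads over 190453 bases, the same numbers as the local junction.

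Groups outside immunity included the RIKEN genes 2610005L07Rik and 6820431F20Rik, whose leading join had 921 and 803 reads, Plac9a and Plac9b with 9 joins and 906 and 666 reads, Tmem254 copies with 6 joins and 297 and 270, Selenbp1 and Selenbp2 with 5 joins and 291 and 310, and the drug transporters Abcb1a and Abcb1b with Abcb4, 7 joins and 73 and 98 reads. Every join of the Plac9 group had 209 and 171, 79 and 43 or 14 and 8 reads. Those of the Tmem254 group had 75 and 69 or 24 and 21. The sums add these equal rows, so they may count a read more than once, which was not tested. The pancreatic amylase genes had 4 joins of 16 and 18 reads each over 102097 to 199918 bases. Not every pair of compared exons was alike. At 1 donor of H2-D1 the joins to H2-Q6 and H2-Q4 differed at 24 of 30 bases upstream and 27 of 30 downstream, and the joins from Lipo3 to Rnls, 11 and 4 reads each, differed at 23 of 30 bases upstream. These joins linked different intron numbers of their genes, so their mismatches compare exons at different places. Some joins of the same intron number were also unlike at 1 end. The leading join of 2610005L07Rik and 6820431F20Rik differed at 17 of 30 bases upstream and 0 downstream. A530040E14Rik to Gm16026, with 20 and 40 reads, differed at 27 upstream and 0 downstream. Gbp4 to Gbp8 over 106292 bases differed at 0 upstream and 24 downstream. Mismatches over 30 bases do not show that the genes as a whole are unlike.

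The 7 unannotated junctions within 1 gene were weak, with 10 to 21 reads. In Bach2 the donor of the annotated long intron was joined to the exon after next over 184308 bases by 4 and 8 reads, 8.45% of the donor's reads. Macrod1 did the same over 130210 bases with 13 and 5 reads. Junctions of Tbc1d22a (12 and 9 reads over 105608 bases), Ankrd44 (8 and 3 reads) and Pvt1 (7 and 3) also skipped an exon. In Dock10 an acceptor at 80644905, beside the annotated one at 80644908, was used by 6 and 8 reads. Annotated introns with an A flag of 0, 8 in all, included those of Zfand3 (43 and 47 reads), Hdac9 and Foxn3. The 1 row with an A flag of 1 and no matching span was on chromosome 11, with 12 and 22 reads over 170102 bases.

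Among the 735 junctions with neither end at a named site, 587 had a C flag of 0 and 148 a C flag of 1. Of the 587, 261 (44.5%) had neither end inside a gene with named sites on either strand, 220 (37.5%) had 1 end inside one, and 11 had both ends in the same gene on its strand. They took a median of 100% of the reads at their donor. The row with the most reads of all long junctions belonged here, on the minus strand at chr4:121870932-122132563, with 30920 and 19527 reads over 261632 bases. Its neighbours at chr4:121870916-122132560 and chr4:121870864-122132493 had 1261 and 717 and 866 and 375 reads, and contigs of level 739.0 and 630.0 lay at the ends. The next were chr7:130363558-130503843 on the plus strand with 8249 and 3706 reads and chr6:30479971-30688254 on the minus strand with 2973 and 4691. These 3 differed in direction between the libraries. At chr12:34505011-34647728 there were 211 and 1031 reads, and a row at chr2:71771080-71976769 had 0 and 203. What these rows join was not analysed further here, since no mm9 sequence or annotation was used.

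With a C flag of 1 and neither end named, the leading row was chr16:19065775-19200290 on the minus strand, with 2961 and 2014 reads and 28.1% of its donor's reads. The immunoglobulin lambda genes lie on chromosome 16 and the T cell receptor alpha genes on chromosome 14, and neither region was among those left out. On chromosome 14 the megabase from 53 held 11 junctions with 246 reads, the longest of 702450 bases with 3 and 7 reads. Without an mm9 annotation these rows were not assigned to antigen receptor genes. On chromosome 15 an acceptor at 74942111 served joins of 127353, 185692 and 320027 bases with 119 and 283, 118 and 282, and 73 and 189 reads, in the region of Ly6 genes. On chromosome 7 the adult beta globin genes Hbb-bt and Hbb-bs each held the acceptor of a join from 111082961, with 85 and 201 reads in both rows. Unlike the rows above, these 2 had a C flag of 0. The longest of all, 1223208 bases, started at 17774106 on chromosome 12, inside Hpcal1, and reached 18997313, and the same donor reached 18911757 and 18566397. All 3 rows had 4 and 6 reads. Others of the 10 longest were 851508 bases with 14 and 13 reads, 843050 with 15 and 11 and 827546 with 34 and 20, all on chromosome 4 near the chemokine copies, and 847280 with 8 and 11 and 700662 with 11 and 9 on chromosome 14. The megabase of chromosome 6 from 41 held 52 of the 1312 junctions and 188148 of their reads, and those on chromosomes 17 from 6, 14 from 26 and 17 from 35 held 39, 38 and 32. In these 4 windows 0 junctions were annotated introns.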

How the data were processed

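Spleen poly(A) RNA of 1 group was sequenced in 2 libraries. The deposited gene and transcript tables give expected counts, TPM and the percent of a gene that each transcript holds, on mm10 with GENCODE M4 per the deposited notes. The deposited junction list gives a count of reads per junction and the contig list a coverage signal, each with an irreproducibility value read like a p-value and a display score, on mm9 per the deposited notes. No source used here names the aligner, the caller or the columns. Depth was 49686331 and 51393340 gene counts and 21507321 and 25096837 junction reads.

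Splice sites were named where 2 neighbouring junctions with an A flag of 1 and the exon between them had the spans of an annotated transcript; 228 junctions were named both by this and by span, with the same gene in all 228. Of the 244 span matches, 241 fitted 1 gene only; the other 3 fitted overlapping genes and were kept under both names. Expected counts were rounded. Ratios used library sizes scaled by TMM (edgeR 4.0.16, R 4.3.3), a prior count of 2 and features with 10 or more counts in total. DESeq2 1.42.0 size factors were an alternative. Tests ran in scipy 1.17.1 under Python 3.11.15 and were tested on simulated data. The members and gene lists were chosen with earlier results of these data known. The text names, from the naming rule, the 20 members with most reads, the 10 longest spans, those nearest each threshold, members in listed genes and genes with 3 or more members; other genes named were chosen after their values were seen. The comparisons of junction reads between libraries were added after the data were seen. Per-sample columns not used numbered 0. The counts of 1 further gene list are not reported here.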

Additional observations from a re-analysis of the deposited data

How the results depend on the processing

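The number of long junctions follows its limits: it was 2632, 730 and 351 with a minimum of 5, 20 and 50 reads, and 2760 and 510 with a minimum span of 50000 and 200000 bases. The annotated share, 18.6% as reported, was 22.6% and 25.1% with 20 and 50 reads, 39.0% and 4.51% with spans of 50000 and 200000 bases, and 23.1% with 1 row for each pair of loci, an alternative added after the data were seen. A contig edge, rather than a contig, lay within 10 bases of both ends in 16.5% of members. This was 5.34% with edges at 0 bases, 22.7% within 50 bases and 8.155% with contigs of an irreproducibility value of 0.1 or less. The median share of a donor's reads over all members, 96.9%, was 100% against alternatives with 2 or more reads and 94.4% at the acceptor. The median TPM of the members' genes was 3.95 to 4.16 when either library was left out. Their median log2 ratio was -0.16 as a difference of log2(TPM + 0.1), and the sign was the same in all alternatives run. The other 22 alternatives moved a value by less than its spread or a total count by less than 1.5 times. Scaling by total junction reads did move the calls toward library 2 among annotated long introns, from 13 to 6. No paired analysis was possible because the samples form a single group. Depth limits single introns: the median annotated long intron had 31 reads over both libraries.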
